A study of Mus musculus with 32 samples.

Results

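The proteasome subunits were the 43 protein-coding mouse genes whose symbols consist of Psma, Psmb, Psmc, Psmd or Psme and a number, among the 74021 genes of the LAG-3 sort table, the 74016 of the stage table and the 74021 of the spinal cord table. They comprised 7 genes of the alpha ring, 4 structural beta subunits, 3 constitutive catalytic beta subunits, 3 immunoproteasome catalytic beta subunits, 2 tissue-restricted core subunits, 9 subunits of the base, 8 of the lid, 3 assembly chaperones of the base that carry Psmd names and 4 activator genes. RNA-seq was available for 32 libraries. The sort experiment held CD11b+/CD45int microglia of the lumbar spinal cord, with 4 WT libraries, 5 SOD1G93A LAG-3-low libraries and 5 SOD1G93A LAG-3-high libraries. Both SOD1G93A sorts were gated on surface LAG-3 from mice at P140; the labels give no age for the WT mice. The stage experiment held microglia of 2 genotypes, SOD1G93A/LAG-3+/+ and its knockout counterpart SOD1G93A/LAG-3-/-, each taken at P120 and at P140 with 3 libraries. The cord experiment held unsorted tissue of the lumbar spinal cord at P140 from the same 2 genotypes, 3 libraries each. Every group other than WT carried the SOD1G93A transgene, a mutant human superoxide dismutase that causes motor neuron degeneration in mice. LAG-3-/- mice lacked the inhibitory receptor LAG-3 in all cells, not in microglia alone. Nothing in the labels says whether libraries of a group came from separate mice, so p-values measure the spread between these libraries.

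The proteasome degrades proteins that carry ubiquitin chains. Its barrel-shaped core is closed by the alpha ring and cuts peptide bonds inside the beta ring, while the cap that recognises and unfolds substrates is built from a base of ATPases and a lid that removes ubiquitin. In cells exposed to interferon, and constitutively in many immune cells, the catalytic subunits encoded by Psmb5, Psmb6 and Psmb7 are replaced in newly built cores by those of Psmb8, Psmb9 and Psmb10. The exchange favours peptides that bind MHC class I molecules. The activator made of Psme1 and Psme2 products is induced by the same cytokine.

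Promoter sequence was taken from RefSeq (build GRCm38.p6), whose table held 36 of the 43 genes and lacked Psma8, Psmb1, Psmb2, Psmb7, Psmc3, Psmd3 and Psmd7. The 250 bases upstream of the start were searched on both strands for the core antioxidant response element TGACNNNGC, the sequence read by the transcription factors NRF1 and NRF2 that control proteasome genes. It was found for 5 genes (Psmb5, Psmb6, Psmc6, Psmd9 and Psmd12), or 13.9% of the 36, against 11.5% of 27025 mouse promoters. The interferon-stimulated response element was found for Psmb3, Psmd4 and Psmd9, or 8.33% against 3.46%. The gamma-activated site TTCNNNGAA was found for Psmb8 alone, or 2.78% against 8.13%, and the CCAAT box for 14 genes, or 38.9% against 37.5%. These are matches of letters, not sites shown to be bound. The windows of 2 immunoproteasome genes and 1 constitutive gene are given 5' to 3' on the gene's strand up to the base before the start, with the matched letters in capitals: ATTGG, the CCAAT box on the opposite strand, for Psmb9 (chr17:34187331-34187555, minus strand, 61.3% GC), the gamma-activated site for Psmb8 (chr17:34198075-34198194, plus strand, 66.7% GC) and the antioxidant response element for Psmb5 (chr14:54617996-54618115, minus strand, 57.5% GC). Psmb8 and Psmb9 lie in the MHC region of chromosome 17 beside Tap1, which encodes a peptide transporter. On GRCm39 the Psmb9 gene (34400960 to 34406738, minus strand) and Tap1 (34405996 to 34416199, plus strand) overlap head to head. Psmb7 overlaps Nek6 on the opposite strand. Reads of these partners may not be separated fully.
Psmb9: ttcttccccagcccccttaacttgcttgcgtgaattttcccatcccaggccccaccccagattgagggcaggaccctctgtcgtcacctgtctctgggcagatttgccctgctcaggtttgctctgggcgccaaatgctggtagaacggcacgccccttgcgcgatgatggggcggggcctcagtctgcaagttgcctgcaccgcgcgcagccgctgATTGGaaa
Psmb8: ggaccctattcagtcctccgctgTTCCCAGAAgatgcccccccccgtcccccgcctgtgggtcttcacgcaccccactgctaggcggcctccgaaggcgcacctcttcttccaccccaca
Psmb5: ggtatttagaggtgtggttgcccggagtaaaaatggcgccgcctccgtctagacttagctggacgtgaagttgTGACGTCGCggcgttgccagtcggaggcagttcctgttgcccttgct

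Library totals ranged from 9403475 to 22850586 counts in the sort table, from 23981406 to 49512632 in the stage table and from 19430102 to 26994524 in the cord table. Levels are given as CPM, a gene's counts scaled to its library's total, after TMM scaling within a table. Differences are log2 fold changes from the quasi-likelihood test of edgeR. Its p-values were adjusted by Benjamini-Hochberg over the 16508, 18669 and 17702 genes tested in the 3 tables, and a gene was called at an adjusted p under 0.1. Lag3, the sorted or deleted gene, stood at 0.508 to 9.99 CPM in WT, 34.8 to 57.8 CPM in LAG-3-low and 146 to 195 CPM in LAG-3-high libraries, and it stood at no more than 0.462 CPM in the LAG-3-/- microglia. In cord it stood at 43.4 to 74.5 CPM in LAG-3+/+ and 5.50 to 5.72 CPM in LAG-3-/- libraries. Microglial markers were abundant in every sorted library, but a list of 10 neutrophil genes summed to 22830 to 66380 CPM in LAG-3-low, 5973 to 70510 CPM in WT and 3.48 to 9.67 CPM in LAG-3-high libraries, where 3 to 10 of the 10 genes had any count. Among the stage libraries the same sum was 1743 to 2576 CPM in P120 LAG-3+/+, 2.68 to 6.58 CPM in P120 LAG-3-/-, 3.84 to 3482 CPM in P140 LAG-3+/+ and 4.03 to 4616 CPM in P140 LAG-3-/- libraries. One library, replicate 1 of P140 LAG-3-/-, stood apart from the other 2 of its group. The 4 WT libraries spread more widely than the other sorted groups in the summed level of the proteasome genes. The counts of called genes, and a part of the results that turn on these libraries, are given with and without them.

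All 43 genes passed the filter on low counts in both microglial tables, and 41 did so in cord, where Psma8, the testis form of an alpha subunit, and Psmb11, the thymus form of a catalytic subunit, had at most 0.524 and 0.114 CPM. Per kilobase of transcript, Psmb6 ranked first in P140 LAG-3+/+ microglia with a mean of 459 CPM per kb (range 404 to 556, n = 3), followed by Psma7 at 352, Psme2 at 347, Psmb3 at 275 and Psmb8 at 248. The same 5 genes led in LAG-3-high microglia, with Psmb6 at 228 CPM per kb and Psmb8 at 170. In LAG-3+/+ cord the order was another: the base ATPase gene Psmc5 led at 111 CPM per kb, Psmb7 came next at 82.7 and Psmb4 next at 76.8, while Psmb8 at 7.48 and Psmb9 at 2.98 ranked 40 and 41 of 43. Psmb7 ranked 38 in P140 LAG-3+/+ microglia at 24.6 CPM per kb. These ranks depend on the transcript length used, which for some genes far exceeds the coding length. Psmb1, at rank 33 in LAG-3+/+ cord, had a transcript of 6002 bases with 720 coding bases. Ranks per kb of coding sequence were not computed. Microglia and cord tables were scaled separately and the study's methods name different library kits for them, so the difference in order between them was not tested.

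**Figure D1:**
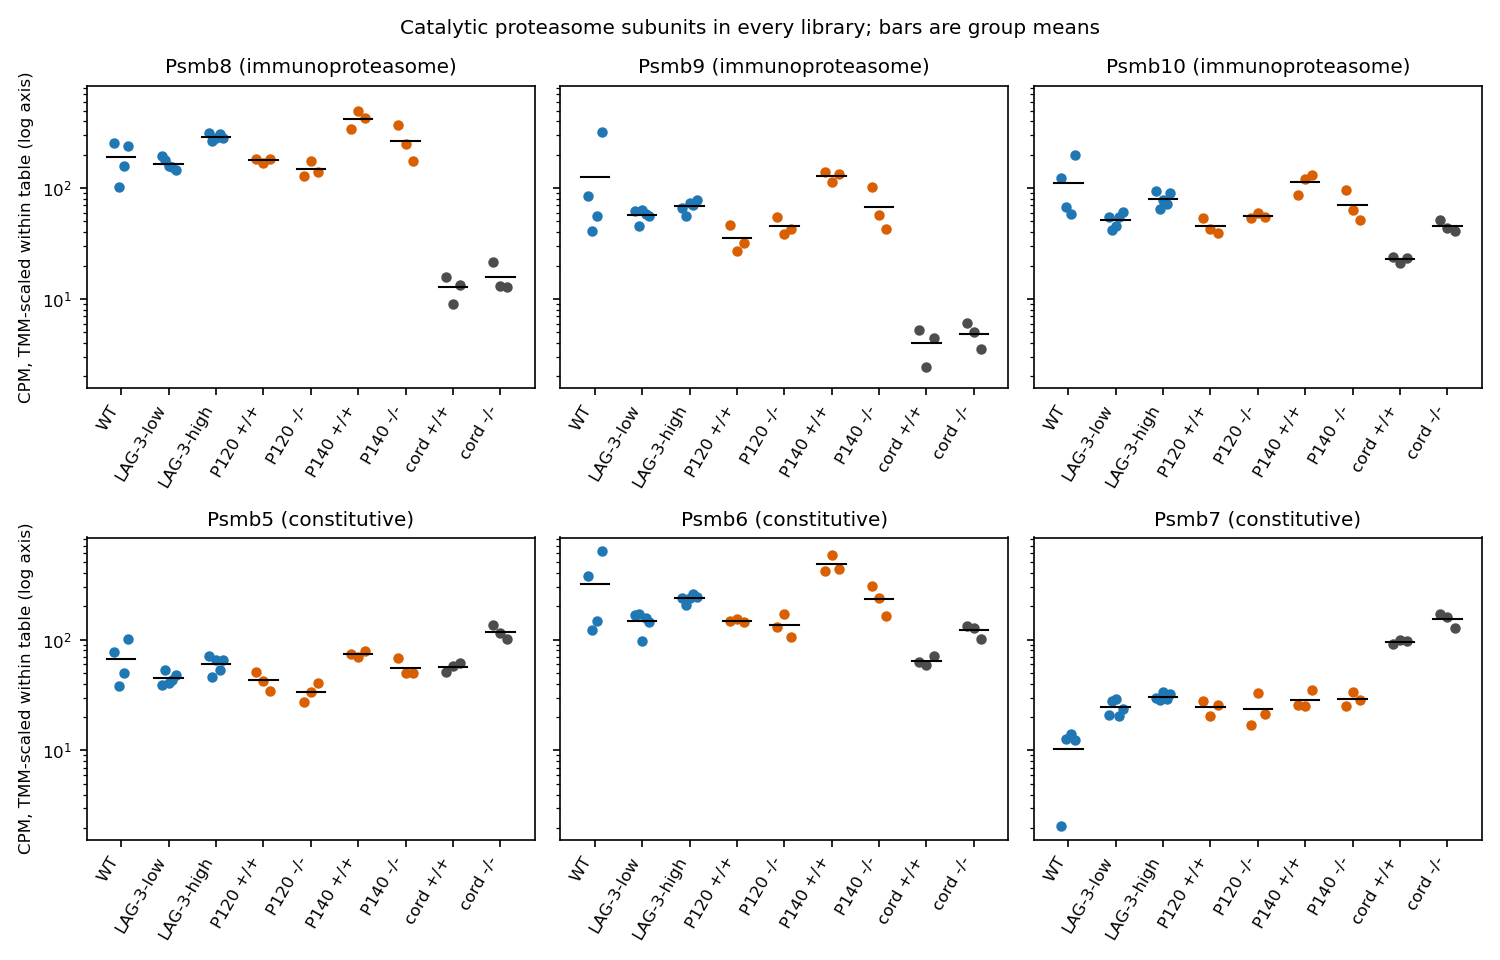
Level of the 6 catalytic subunit genes in each of the 32 libraries, in CPM on a log axis after TMM scaling within each table, with a bar at each group's mean; blue points are the sort table, orange the stage table and grey the cord. Psmb8, Psmb9, Psmb10 and Psmb6 are highest among the stage groups in P140 LAG-3+/+ microglia, where Psmb8 stood at 340 to 499 CPM, and Psmb8 and Psmb9 are lowest in cord.

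The first question was whether microglia with much and with little surface LAG-3 differed in these genes at P140. Of the 43 genes, 2 (4.65%) were higher in LAG-3-high than LAG-3-low microglia and none was lower. This was near the share over all genes, of which 4.39% were called in this comparison and 1.59% were called higher. Psmb8, the immunoproteasome subunit that takes the place of Psmb5, stood at 194, 178, 159, 154 and 147 CPM in the 5 LAG-3-low libraries and at 316, 263, 282, 307 and 280 CPM in the 5 LAG-3-high libraries. All LAG-3-high libraries lay above all LAG-3-low libraries, a 1.74-fold difference (log2 0.80, SE 0.22, adjusted p = 0.0627). Psmd7, a lid subunit that pairs with the deubiquitinase Psmd14, stood at 69.9, 71.7, 59.0, 66.3 and 74.8 CPM in LAG-3-low and 129, 94.8, 99.4, 100.1 and 104 CPM in LAG-3-high libraries, again without overlap (log2 0.62, SE 0.18, adjusted p = 0.0880).

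The remaining catalytic and activator genes did not pass the test. Psmb10, the immunoproteasome partner of Psmb7, stood at 42.3 to 61.4 CPM in LAG-3-low and 65.3 to 93.9 CPM in LAG-3-high libraries, which did not overlap (log2 0.63, 95% interval 0.04 to 1.21, adjusted p = 0.430). Psmb6 at 97.6 to 171 against 207 to 258 CPM (log2 0.68, adjusted p = 0.5), Psme1 at 82.9 to 119 against 134 to 167 CPM (log2 0.64, adjusted p = 0.312) and Psme2 at 102 to 127 against 131 to 188 CPM (log2 0.46, adjusted p = 0.586) were likewise separate by library. Psmb5 (log2 0.42), Psmb7 (log2 0.32) and Psmb9 (log2 0.27) overlapped between the groups; for Psmb9 the 95% interval ran from -0.58 to 1.12. The largest and smallest fitted differences belonged to Psma8 (log2 1.14) and Psmb11 (log2 -1.38), both at low levels and neither called. Over the 43 genes the median log2 fold change was 0.26, against -0.02 over all genes tested, and 36 were positive.

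Both calls depended on the settings. Without TMM the count of called genes was 0 and the median of the 43 genes moved to -0.11, with that of all genes at -0.40. With only the 2 groups in the fit the count was 12 of 42, of which 11 were higher and Psme3 lower, with 23.7% of all genes called. It was 4 without WT replicate 4, 2 without any other WT library, 1 without LAG-3-low replicate 1 and 0 without any other LAG-3-low or LAG-3-high library. The share of all genes called with a library left out is not given here. The 10 neutrophil genes were all lower in the LAG-3-high libraries, with every library separate from the LAG-3-low ones. Monocyte and border macrophage markers summed to 140.6 to 343.2 CPM in LAG-3-low and 1.69 to 9.11 CPM in LAG-3-high, astrocyte markers to 1.86 to 12.55 and 21.0 to 59.9 CPM, and microglial markers to 15370 to 22590 and 22780 to 24960 CPM. The part of these genes in the differences was not tested; in bulk libraries fewer cells of a type and less RNA per cell cannot be told apart.

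Among the genes around the proteasome, 3 of 10 partners in class I presentation were higher in LAG-3-high microglia. They were H2-D1 and H2-K1, which encode class I heavy chains, by log2 1.19 (adjusted p = 0.00369) and 1.02 (adjusted p = 0.0152), and B2m, which encodes their light chain, by 1.19 (adjusted p = 0.0580). Tap1 was not called (log2 -0.02, adjusted p = 0.998). None of 11 assembly factors, 7 regulators or 12 interferon response genes was called. Pomp, the maturation factor of the core, had log2 0.55 (adjusted p = 0.589), Nfe2l1, which encodes NRF1, 0.71 (adjusted p = 0.870), and Nlrc5, an activator of class I and immunoproteasome genes, 1.07 (adjusted p = 0.768).

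Against WT the 2 SOD1G93A sorts shared the same 4 WT libraries, so their results are given side by side. In LAG-3-high microglia 6 genes (14%) were higher and 7 (16.3%) lower than in WT. These shares were near those over all genes, of which 30.3% were called, 13.8% as higher and 16.5% as lower. For LAG-3-low microglia 4 (9.3%) were higher and 12 (27.9%) lower, where 24.9% of all genes were called, 12% as higher and 12.9% as lower. The higher genes included Psmd1 and Psmd2, the large scaffold subunits of the base. Psmd1 stood at 58.4, 67.8, 67.7 and 36.2 CPM in WT, at 106 to 131 CPM in LAG-3-low and at 121 to 144 CPM in LAG-3-high libraries. Neither SOD1G93A sort overlapped WT, with log2 1.24 for LAG-3-high (adjusted p = 0.000881) and 1.09 for LAG-3-low (adjusted p = 0.00334). Psmd2 ranged from 11.4 to 172 CPM in WT, 146 to 265 CPM in LAG-3-low and 233 to 308 CPM in LAG-3-high libraries (log2 1.33, adjusted p = 0.0840, and 1.79, adjusted p = 0.0241). Psmb7 was higher in both sorts as well, at 2.09 to 14.1 CPM in WT against 20.4 to 29.2 and 28.4 to 33.7 CPM (log2 1.25, adjusted p = 0.0748, and 1.57, adjusted p = 0.0278).

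Psmb8 was higher than WT in LAG-3-high microglia (log2 0.62, adjusted p = 0.0684), where all 5 libraries lay above the WT range of 102 to 254 CPM, and had log2 -0.18 in LAG-3-low microglia (adjusted p = 0.627). Psmd3, a lid subunit, was also higher in LAG-3-high microglia (log2 0.92, adjusted p = 0.0466), and Psme3, which encodes a nuclear activator, was higher in LAG-3-low microglia (log2 1.14, adjusted p = 0.0360). Lower in both sorts were Psmb2, a structural beta subunit (log2 -1.38, adjusted p = 0.0357, in LAG-3-high and -1.55, adjusted p = 0.0271, in LAG-3-low), Psmd10, a chaperone of the base also called gankyrin (log2 -0.91 and -1.07), and Psmd4, a ubiquitin receptor (log2 -0.67 and -0.89). Psmb2 ranged from 71.2 to 603 CPM in WT, and the SOD1G93A libraries of both sorts, at 84.7 to 116 CPM, fell inside that range. Psmb3 (log2 -1.14) and Psme4 (log2 -1.69), the latter a large activator of the core, were lower in LAG-3-high microglia. In LAG-3-low microglia the lower genes included Psmb6 (log2 -1.11, adjusted p = 0.0561), Psmb10 (log2 -1.11, adjusted p = 0.0281), Psma3 (log2 -0.99, adjusted p = 0.0236) and Psme2 (log2 -0.85, adjusted p = 0.0555). Psmb9 was not called in either sort (log2 -0.86 and -1.14, adjusted p = 0.194 and 0.104).

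Many of these comparisons with WT depended on single libraries, in fits that left out each of the 14 in turn. Psmd1 kept its call in all 14 fits in both sorts. So did Psmd2, Psmd3 and Psmb7 in LAG-3-high and Psmd4, Psmd10, Psmb10, Psma3 and Psme3 in LAG-3-low. Psmd2 in LAG-3-low lost its call in 12 fits and Psmd4 in LAG-3-high in 7. Psmb8 in LAG-3-high and Psmb7 in LAG-3-low lost it in 5 each. The other calls named above were lost in 1 to 4 fits. WT replicate 4 held 320 CPM of Psmb9 where the other WT libraries held 41.0 to 84.3 CPM. Without it the Psmb9 difference of LAG-3-high from WT moved from log2 -0.86 to 0.20. The called genes numbered 13 of 43 in LAG-3-high and 16 in LAG-3-low with all libraries. They numbered 21 and 27 without WT replicate 2, and 7 and 11 without WT replicate 4. In LAG-3-high they numbered 7 without LAG-3-high replicate 1, 3 or 4. The share of all genes called in these fits is not given here.

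The next question was how these genes changed between P120 and P140, within each LAG-3 genotype. In LAG-3+/+ microglia 35 of the 43 genes were higher at P140 and none was lower, where 27.4% of all genes were called and 11.9% were called higher. Of these, 28 rose by more than log2 1, where 22.4% of all genes passed that limit in either direction. The median log2 fold change of the 43 genes was 1.12, against -0.22 over all genes tested. Without TMM both medians were lower by about the same step (0.62 and -0.70), and 26 genes were then higher and 1, Psme3, lower. The summed neutrophil levels given above overlapped between the 2 stages of LAG-3+/+ microglia. Microglial markers summed to 24960 to 28080 CPM at P120 and 33510 to 40180 CPM at P140, and the part of either list in the rise was not tested.

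The rise covered nearly all parts of the particle. All 7 alpha ring genes, all 4 structural beta genes, all 3 immunoproteasome genes and all 3 base chaperones rose, as did 2 of 3 constitutive catalytic genes, 7 of 9 base genes, 7 of 8 lid genes and 2 of 4 activator genes. Psmb9 changed most: it stood at 46.4, 27.1 and 32.3 CPM at P120 and at 140, 114 and 133 CPM at P140, a 3.66-fold rise (log2 1.87, SE 0.33, adjusted p = 0.00638). Psmb8 stood at 183, 168 and 183 CPM at P120 and 340, 499 and 429 CPM at P140 (log2 1.25, SE 0.26, adjusted p = 0.0101). Psmb10 stood at 54.2, 42.7 and 39.7 CPM at P120 and 86.9, 121 and 131 CPM at P140 (log2 1.31, SE 0.26, adjusted p = 0.00853). In each of the 3 genes every P140 library exceeded every P120 library.

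Of the constitutive counterparts, 2 of 3 rose as well. Psmb6, which carries the caspase-like activity, stood at 147, 154 and 143 CPM at P120 and 418, 576 and 432 CPM at P140 (log2 1.68, SE 0.25, adjusted p = 0.00529). Psmb5, which carries the chymotrypsin-like activity, rose less, from 51.4, 42.6 and 34.3 CPM to 74.1, 68.9 and 78.0 CPM (log2 0.79, SE 0.24, adjusted p = 0.0388). Psmb7, which carries the trypsin-like activity, overlapped between the stages at 20.5 to 28.1 and 25.1 to 34.9 CPM (log2 0.20, 95% interval -0.40 to 0.80, adjusted p = 0.703).

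Of the cap, the base ATPase gene Psmc4 had the smallest adjusted p, with 95.9, 102 and 91.0 CPM at P120 and 199, 250 and 265 CPM at P140 (log2 1.30, SE 0.19, adjusted p = 0.00511). Psmc3, another base ATPase gene, rose from 140 to 158 CPM to 297 to 350 CPM (log2 1.14, adjusted p = 0.00708), and Psma3 of the alpha ring from 123 to 148 CPM to 256 to 355 CPM (log2 1.12, adjusted p = 0.00638). The scaffold genes Psmd1 (log2 -0.05, adjusted p = 0.899) and Psmd2 (log2 -0.11, adjusted p = 0.807) overlapped between the stages. Psmd6 of the lid did not pass the test (log2 0.63, adjusted p = 0.219), although its 3 P140 libraries lay above the P120 libraries. Among activators, Psme2 rose from 121, 138 and 112 CPM to 304, 373 and 327 CPM (log2 1.44, SE 0.29, adjusted p = 0.00942) and Psme1 from 158, 131 and 108 CPM to 221, 235 and 252 CPM (log2 0.83, SE 0.26, adjusted p = 0.0486). Psme3 (log2 -0.62, adjusted p = 0.154) and Psme4 (log2 -1.07, adjusted p = 0.447) did not pass the test, and in both every P140 library lay below every P120 library. Reads of Psme2 and its retrocopy Psme2b may not be separated fully, which was not measured. The smallest fitted value was that of the near-silent Psmb11 (log2 -1.54), which was not called.

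Several partners moved in the same comparison. Of 11 assembly factors tested, 8 were higher and 1 lower, among them Pomp (log2 1.30, adjusted p = 0.0113), the core chaperone gene Psmg1 (log2 1.61, adjusted p = 0.0101) and Sem1 (log2 1.24, adjusted p = 0.0149), a small lid subunit without a Psmd symbol. Ecpas, a large proteasome adaptor, was the lower one (log2 -2.51, adjusted p = 0.0197). Of 7 regulators 2 were higher, Nfe2l2, which encodes NRF2 (log2 0.73, adjusted p = 0.0410), and Irf1 (log2 1.11, adjusted p = 0.0581). A further 2 were lower, Nfe2l1 (log2 -2.36, adjusted p = 0.0248) and Ddi2, which encodes the protease that activates NRF1 (log2 -1.01, adjusted p = 0.0398). Of 10 class I partners, 5 were higher and 1 lower, with H2-D1 at log2 1.81 (adjusted p = 0.00946), B2m at 1.51 (adjusted p = 0.0127) and H2-K1 at 1.41 (adjusted p = 0.0147), while Tap1 was not called (log2 0.09, adjusted p = 0.941). Of 12 interferon response genes 6 were higher, such as Usp18 (log2 2.76, adjusted p = 0.0124). Of 5 ubiquitin genes Ubb was higher (log2 1.56, adjusted p = 0.00515) and Uba1, which encodes the ubiquitin-activating enzyme, lower (log2 -1.43, adjusted p = 0.00683). The values of these partners are not corrected for gene length, on which fold changes in this comparison depended. Among genes of at least 10 CPM, the median log2 fold change fell from 0.82 in the shortest to -1.57 in the longest length class. The part of length in the differences of the partners was not tested.

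**Figure D2:**
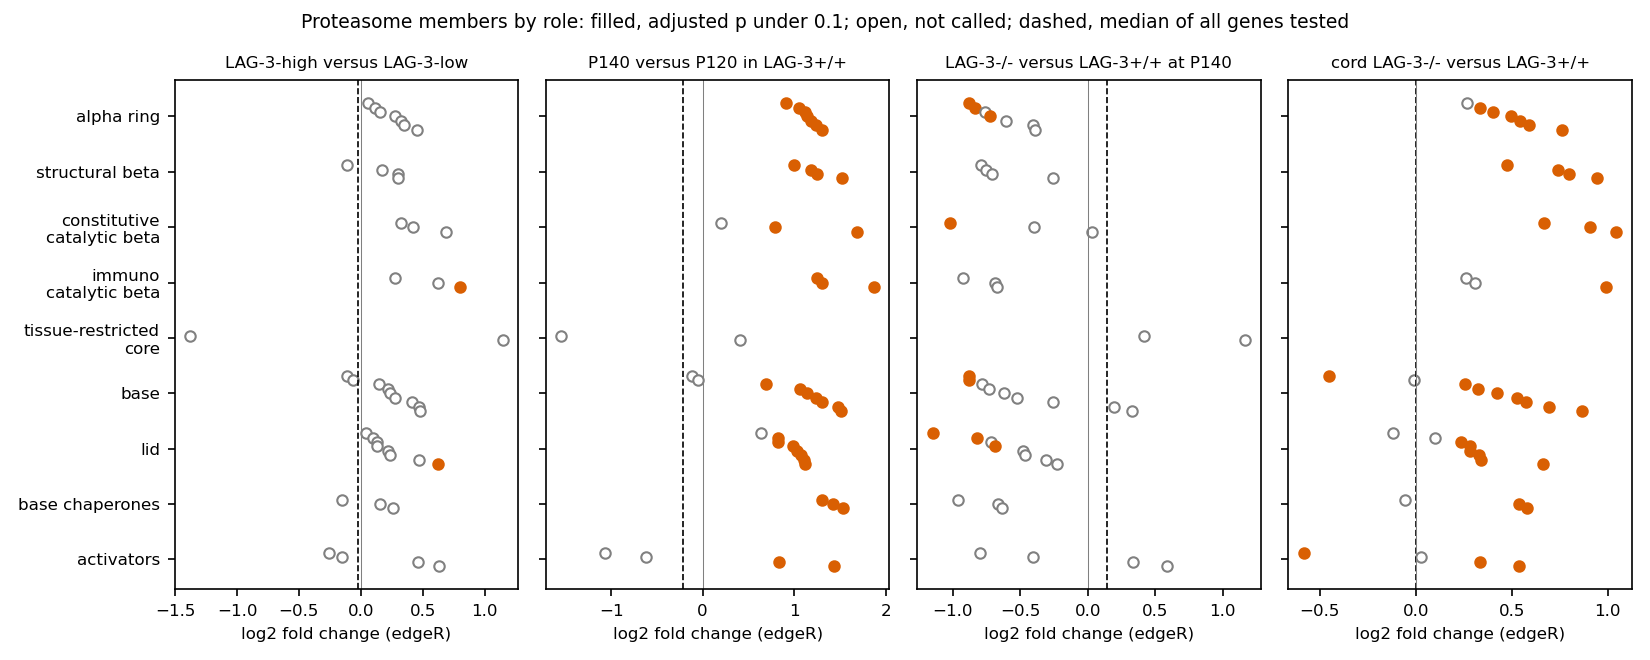
Log2 fold change from edgeR of each proteasome gene, grouped by role, in 4 comparisons; filled points are genes called at an adjusted p under 0.1, open points genes not called, and the dashed line is the median of all genes tested. In the P140 to P120 comparison of LAG-3+/+ microglia 35 of 43 points are filled and to the right of 0, in that of genotypes at P140 9 are filled and to the left, and in cord 31 are filled to the right and 2 to the left.

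In LAG-3-/- microglia none of the 43 genes and none of all 18669 genes (0% called) passed the same test between P120 and P140. At an unadjusted p under 0.05 there were 21 of the 43 genes and 1658 of all genes, and DESeq2 called 6 of the 43, all higher, with 2.43% of all genes. Fitted values were mostly positive, in 40 of 43 genes, with a median of 0.57 against -0.03 over all genes. Psmb8 stood at 128, 176 and 139 CPM at P120 and at 369, 251 and 177 CPM at P140 (log2 0.85, 95% interval 0.34 to 1.35, adjusted p = 0.475). Psmb9 stood at 54.5, 38.1 and 42.95 CPM and then at 103, 57.6 and 43.1 CPM (log2 0.58, adjusted p = 0.652), and Psmb10 at 54.0, 59.8 and 55.3 CPM and then at 95.1, 62.8 and 51.9 CPM (log2 0.31, adjusted p = 0.818). In each of these genes the highest P140 value was that of replicate 1, and without that library the differences were smaller for all 3 genes (log2 0.54, 0.16 and 0.03). Psmb6 (log2 0.79), Psme1 (log2 0.79), Psme2 (log2 0.81) and the extremes Psma8 (log2 2.78) and Psmb11 (log2 -0.89) also missed the threshold.

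The comparison of the genotypes asks what loss of LAG-3 did at each stage. At P120 none of the 43 genes passed the test, where 0.0107% of all genes were called, none had an unadjusted p under 0.05 and DESeq2 called none. The median log2 difference of LAG-3-/- from LAG-3+/+ was -0.16, with Psma8 (log2 -1.21) and Psmd9 (log2 0.42) at the extremes. The 3 immunoproteasome genes had log2 differences of -0.27 for Psmb8 (95% interval -0.77 to 0.23), 0.36 for Psmb9 (-0.27 to 0.99) and 0.31 for Psmb10 (-0.19 to 0.81), so changes of these sizes were not detectable here.

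At P140, 9 of the 43 genes were lower in LAG-3-/- microglia and none was higher, where 10.2% of all genes were called and 3.0% were called lower. The P140 LAG-3+/+ libraries were the same that entered the comparison of stages. The 9 genes were Psmd7, Psmd11 and Psmd13 of the lid, Psmc4 and Psmc5 of the base, Psma3, Psma4 and Psma7 of the alpha ring and Psmb6. Psmd7 stood at 212, 249 and 213 CPM in LAG-3+/+ and at 134, 90.9 and 79.1 CPM in LAG-3-/- libraries, a 2.22-fold difference without overlap (log2 -1.15, SE 0.20, adjusted p = 0.0235). Psmc4 stood at 156, 123 and 108 CPM in LAG-3-/- libraries, all below the LAG-3+/+ range (log2 -0.88, SE 0.19, adjusted p = 0.0331). Psmb6 stood at 303, 237 and 163 CPM in LAG-3-/- libraries, also without overlap (log2 -1.02, SE 0.25, adjusted p = 0.0501). Psma3 (log2 -0.72, adjusted p = 0.0644) and Psmd11 (log2 -0.82, adjusted p = 0.0668) were lower by less.

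None of the immunoproteasome genes passed the test at P140. Psmb9 was lower in every LAG-3-/- library than in every LAG-3+/+ library (log2 -0.93, SE 0.32, adjusted p = 0.116), whereas Psmb8 (log2 -0.67, adjusted p = 0.145) and Psmb10 (log2 -0.69, adjusted p = 0.134) overlapped, since replicate 1 of LAG-3-/- reached 369 and 95.1 CPM. Psme2 at 290, 171 and 116 CPM lay below the LAG-3+/+ libraries (log2 -0.80, adjusted p = 0.126), and Psmb5 (log2 -0.40), Psme1 (log2 -0.40), Psmb7 (log2 0.03) and Psma8 (log2 1.17), the largest value, were not called. The count of called genes was 29, all lower, without LAG-3-/- replicate 1, 0 without LAG-3-/- replicate 2 and 1 without LAG-3-/- replicate 3. Without LAG-3+/+ replicate 1, 2 or 3 of P140 it was 12, 2 and 4, and without one P120 library, which enters only the shared estimate of spread, it was 7 without LAG-3-/- replicate 2 and 3 without any other. The share of all genes called with a library left out is not given here. These counts therefore do not show whether the proteasome genes stood out from other genes. DESeq2 called 22, all lower, with 22.9% of all genes. With only the 2 groups in the fit the count was 0, at an adjusted p under 0.05 it was 2, and with correction for coding length or transcript length and GC content it was 2 and 5. In the 29 were Psmb8 (log2 -0.98), Psmb9 (log2 -1.35), Psmb10 (log2 -0.97) and Psme2 (log2 -1.22). Replicate 1, left out there, differed from replicates 2 and 3 in its dependence on gene length, given below.

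The interaction of genotype and stage, which asks whether the change from P120 to P140 differed between genotypes, called none of the 43 genes, where 0.171% of all genes were called. There were 11 of the 43 genes at an unadjusted p under 0.05. The share of all genes under that limit is not given here, so this count does not set the family apart. DESeq2 called 7, all negative, with 7.14% of all genes. The fitted interaction was negative in 35 of 43 genes, among them Psmb9 (log2 -1.29, SE 0.45, adjusted p = 0.267), Psmb10 (log2 -1.0, SE 0.36, adjusted p = 0.272), Psmb6 (log2 -0.90, SE 0.35, adjusted p = 0.305) and Psmb8 (log2 -0.40, SE 0.36, adjusted p = 0.670). The extremes were Psma8 (log2 2.38) and Psmd9 (log2 -1.38), neither called. Without replicate 1 of P140 LAG-3-/-, 14 genes were called, all negative, with Psmb9 at log2 -1.71 and Psmb10 at -1.28. The share of all genes called in that fit is not given here, so the 14 are not set against it. With all libraries, the difference between the genotypes in the change from P120 to P140 thus passed no test in edgeR and passed that of DESeq2 for 7 genes.

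**Figure D3:**
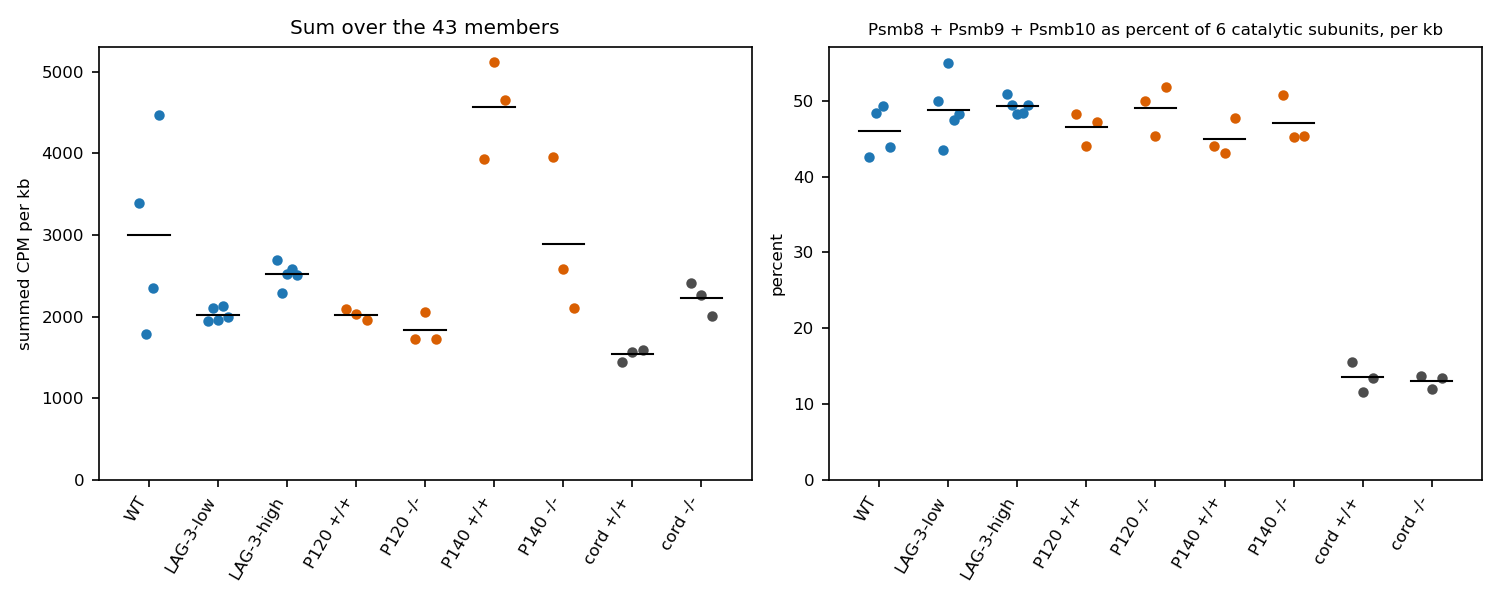
Left, the levels of the 43 genes summed in each library, in CPM per kb of transcript; right, the share of Psmb8, Psmb9 and Psmb10 in the summed level per kb of the 6 catalytic subunits, in percent; points are libraries and bars group means. The sum lies between 3933 and 5122 CPM per kb in P140 LAG-3+/+ libraries and between 1953 and 2094 in P120 LAG-3+/+ libraries, while the share stays between 42.6 and 55.0% in all microglial libraries and between 11.6 and 15.5% in cord.

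Summed over the 43 genes, the level was 1953, 2025 and 2094 CPM per kb in the P120 and 3933, 4655 and 5122 CPM per kb in the P140 LAG-3+/+ libraries. In P140 LAG-3-/- it was 2110, 2585 and 3959 CPM per kb, the highest being replicate 1, which alone reached the LAG-3+/+ range. LAG-3-low libraries held 1942 to 2127 and LAG-3-high libraries 2288 to 2697 CPM per kb, an order that turned when library totals were used in place of TMM (log2 ratio of group means 0.32 with TMM and -0.06 without). WT libraries spread from 1789 to 4476 CPM per kb. The sum is a description of the members and was not tested.

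The share of immunoproteasome genes among the catalytic transcripts overlapped among the 4 stage groups and among the 3 sorted groups. Per kb of transcript, Psmb8, Psmb9 and Psmb10 made up 46.5% ± 2.16 (SD, n = 3) of the catalytic transcripts in P120 and 45.0% ± 2.43 in P140 LAG-3+/+ microglia, and 49.0% ± 3.33 and 47.1% ± 3.16 in LAG-3-/- microglia at the 2 stages. The sorted microglia gave 46.1% ± 3.29 in WT (n = 4), 48.9% ± 4.16 in LAG-3-low (n = 5) and 49.3% ± 1.04 in LAG-3-high (n = 5). By partners, the log2 ratio of Psmb8 to Psmb5 rose by 0.43 from P120 to P140 in LAG-3+/+ microglia and that of Psmb9 to Psmb6 by 0.23, each with overlap between the stages. That of Psmb10 to Psmb7 was higher by 1.11 with no overlap (0.70 ± 0.23 and 1.80 ± 0.25). Elsewhere that ratio was lower by 2.50 in LAG-3-low than in WT libraries (0.90 ± 0.43 and 3.40 ± 1.74), without overlap and with Psmb7 at no more than 14.1 CPM in WT. LAG-3-high libraries, at 1.02 to 1.488, likewise all lay below the WT libraries, at 1.877 to 5.677. In cord the ratio of Psmb10 to Psmb7 was higher by 0.33 in LAG-3-/- libraries, also without overlap. The other ratios computed, between the 2 SOD1G93A sorts, between LAG-3-low and WT, between genotypes at P140 and in cord, overlapped. In cord the share was 13.5% ± 1.94 in LAG-3+/+ and 13.0% ± 0.94 in LAG-3-/- libraries.

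In lumbar spinal cord tissue at P140, 31 of the 41 genes tested were higher in LAG-3-/- than LAG-3+/+ mice and 2 were lower. Over all genes 47.1% were called, 23.1% higher and 23.9% lower. Differences were small, with a median of 0.43 on the log2 scale against 0.00 over all genes, and 1 gene, Psmb5, passed log2 1, where 7.52% of all genes did in either direction. Psmb5 stood at 50.6, 57.3 and 61.4 CPM in LAG-3+/+ and 134, 114 and 101 CPM in LAG-3-/- libraries (log2 1.05, SE 0.13, adjusted p = 0.000306). Psmb6 stood at 63.4, 59.4 and 70.4 CPM and at 134, 127 and 102 CPM (log2 0.91, SE 0.12, adjusted p = 0.000492), and Psmb7 at 91.9, 98.6 and 97.2 CPM and at 170, 159 and 127 CPM (log2 0.67, SE 0.12, adjusted p = 0.00183). In all 3 constitutive catalytic genes the genotypes were separate, with replicate 3 the lowest of the LAG-3-/- libraries.

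The immunoproteasome genes divided. Psmb10 stood at 23.7, 21.0 and 23.5 CPM in LAG-3+/+ and 51.7, 43.3 and 40.7 CPM in LAG-3-/- cord (log2 0.99, SE 0.12, adjusted p = 0.000305), the smallest adjusted p of the family. Psmb8 at 15.8, 8.99 and 13.5 against 21.5, 13.1 and 12.9 CPM (log2 0.31, SE 0.25, adjusted p = 0.368) and Psmb9 at 5.24, 2.45 and 4.41 against 6.01, 5.01 and 3.55 CPM (log2 0.26, SE 0.29, adjusted p = 0.501) overlapped between the genotypes. By role, 6 of 7 alpha ring genes, 4 of 4 structural beta genes, 7 of 9 base genes, 6 of 8 lid genes, 2 of 3 base chaperones and 2 of 4 activator genes were higher. Psmb4, a structural subunit, was higher by log2 0.94 (adjusted p = 0.000319) and Psmd4 by 0.70 (adjusted p = 0.000744), while Psme1 (log2 0.33, adjusted p = 0.0434) and Psme2 (log2 0.54, adjusted p = 0.00918) were higher by less. The 2 lower genes were those with the longest coding sequences: Psme4 (log2 -0.58, adjusted p = 0.00102) at 56.8, 50.9 and 53.8 against 36.3, 35.3 and 36.4 CPM, and Psmd1 (log2 -0.45, adjusted p = 0.00615) at 147, 164 and 152 against 105, 117 and 117 CPM.

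Of 11 assembly factors 8 were higher and 1 lower in LAG-3-/- cord, including Psmg3 (log2 1.24, adjusted p = 0.000337) and Pomp (log2 0.92, adjusted p = 0.000668). None of 7 regulators was higher and 4 were lower, among them Nlrc5 (log2 -0.85, adjusted p = 0.0255), while Nfe2l1 was not called (log2 -0.19, adjusted p = 0.219). Of 12 interferon response genes 6 were lower, of 10 class I partners 1 was lower, none of either list was higher, and Tap1 was not called (log2 -0.10, adjusted p = 0.685). The ubiquitin gene Ubb was higher (log2 0.58, adjusted p = 0.00508). The values of these partners in cord are likewise not corrected for gene length, and the part of length in them was not tested. Cell-type markers moved in the same libraries. Oligodendrocyte markers summed to 13640 to 14910 CPM in LAG-3+/+ and 19590 to 27440 CPM in LAG-3-/- cord. Astrocyte markers summed to 9161 to 10950 and 5484 to 9669 CPM and microglial markers to 1036 to 1318 and 747 to 1021 CPM, and their part in the differences was not tested.

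Proteasome genes are short, and fold changes depended on gene length in these tables. The median coding length of the 43 genes was 828 bases against 1185 bases over 21770 protein-coding genes, and 38 were at most 1500 bases long. Across all genes of at least 10 CPM, Spearman's rho of the log2 fold change with coding length was -0.63 over 7733 genes from P120 to P140 in LAG-3+/+ microglia and -0.61 over 10335 genes in cord. Between genotypes at P140 in microglia it was 0.59 over 7733 genes and 0.33 over the 43 proteasome genes, where the coding length correction gave 2 called genes in place of 9. Over the proteasome genes it was -0.42 (43 genes) in the comparison of stages and -0.47 (41 genes) in cord. Genes are not independent replicates, and these values are descriptions. By library, rho of the deviation from the mean over libraries with coding length was -0.451 in replicate 1 of P140 LAG-3-/-. It was 0.285 and 0.425 in replicates 2 and 3, and -0.592 to -0.465 in P140 LAG-3+/+ libraries. Without replicate 1, all P140 LAG-3-/- values were positive and all P140 LAG-3+/+ values negative. The part of this in the 29 genes called there, and in the 14 of the interaction, was not tested. Shares by length class were taken over genes of at least 10 CPM, whereas the proteasome genes in each class were not limited by level. Of proteasome genes of up to 1000 coding bases, 22 of 26 were higher at P140 in LAG-3+/+ microglia, against 49.6% of that class. From there up to 2000 bases 13 of 14 were higher, against 20.6%. The 3 longest, Psmd1, Psmd2 and Psme4, were not called. In their length classes 1.63% and 0.870% of genes were higher and 43.8% and 64.1% were lower. In cord 20 of 24 were higher in the shortest class, against 54.8%, and 11 of 14 in the next, against 23.1%. The 2 lower genes in cord, Psmd1 and Psme4, fell in classes where 46.8% and 73% of genes were lower. Between genotypes at P140 in microglia, 5 of 26 were lower in the shortest class, against 12.4%, and 4 of 14 in the next, against 4.86%.

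**Figure D4:**
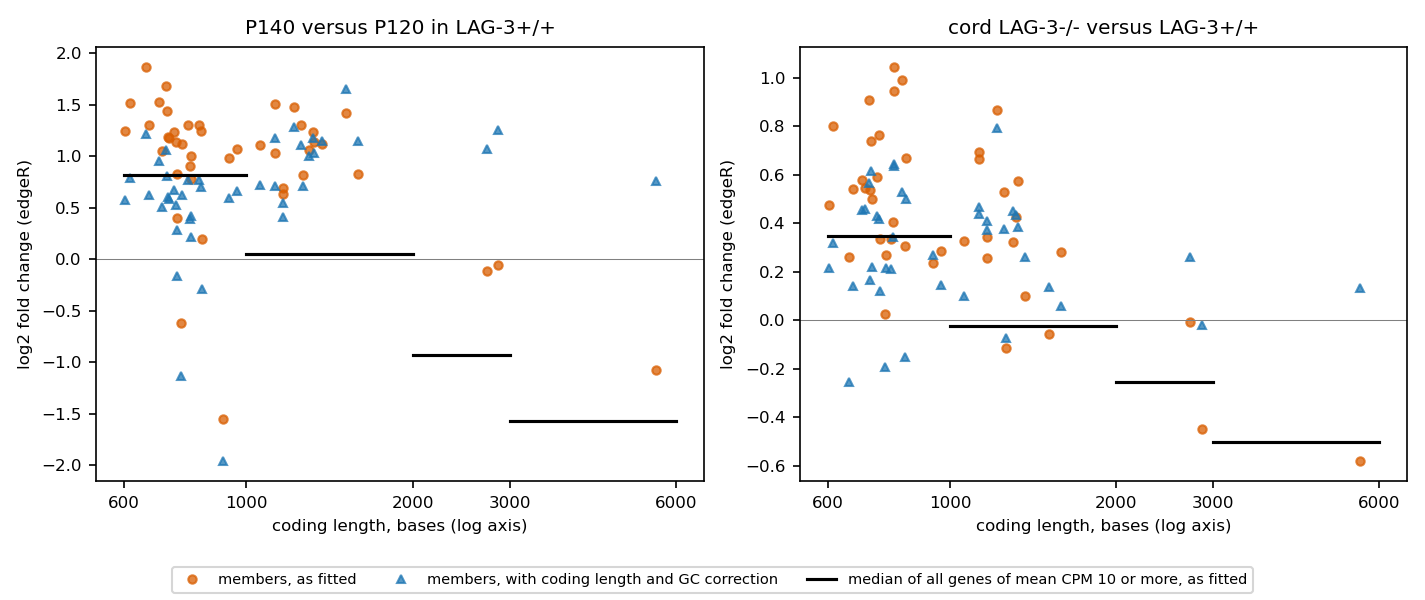
Log2 fold change from edgeR of each proteasome gene against its coding length in bases (log axis), as fitted (orange circles) and after correction for coding length and GC content (blue triangles), with black bars at the median of all genes of at least 10 CPM in 4 length classes. The black bars fall from 0.82 in the shortest to -1.57 in the longest class at left and from 0.35 to -0.50 at right, and the corrected points of Psmd1, Psmd2 and Psme4, the longest genes, are higher than their fitted points in both plots.

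With each library corrected for coding length and GC content, an alternative chosen after the data were seen, 29 genes were higher at P140 in LAG-3+/+ microglia and 1, Psme3, lower (log2 -1.13), with 16.8% of all genes called. With transcript length in place of coding length 23 were higher and none lower, with 19% of all genes called. Under the coding length correction Psmb9 remained higher (log2 1.22, adjusted p = 0.0251), as did Psmb8 (log2 0.71, adjusted p = 0.0360), Psmb10 (log2 0.77, adjusted p = 0.0302), Psmb6 (log2 1.06, adjusted p = 0.0116) and Psme2 (log2 0.81, adjusted p = 0.0373). Psmb5 (log2 0.21, adjusted p = 0.574) and Psme1 (log2 0.29, adjusted p = 0.423) did not pass the test there, and Psmd1 (log2 1.25) and Psmd2 (log2 1.07) turned positive. In cord 28 genes were higher and none lower under this correction, with 31.3% of all genes called. Under the transcript length correction 14 were higher and 1 lower of 41, with 26% of all genes called. The small positive values of Psmb8 and Psmb9 turned negative under both (log2 -0.15 and -0.25 by coding length), neither called.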

How the data were processed

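The proteasome genes and the pathway and marker lists were chosen with earlier results of these data known. The authors trimmed reads with Trim Galore 0.6.7, quantified them with Salmon 1.9.0, imported them into R 4.2.1 with tximport and deposited estimated counts per Ensembl gene (build GRCm39; annotation release not given in the sources used here). The labels name a SMART-seq mRNA kit for all libraries, while the paper's methods name a directional kit for cord. Libraries were grouped by their titles.

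Here the deposited expected counts were rounded to whole numbers, and each table was fitted with edgeR 4.0.16 (R 4.3.3): filterByExpr with a minimum count of 10 and a minimum total of 15, TMM factors, 1 mean per group and the quasi-likelihood F-test with robust dispersions. P-values were adjusted by Benjamini-Hochberg within each comparison. CPM values use TMM-scaled totals, and levels per kb divide by transcript length. Intervals are 95% intervals from the standard error, with a factor of 1.96. The identifiers absent from the annotation (71, 66 and 71) held 0.0479%, 0.0514% and 0.0145% of the counts of the sort, stage and cord tables.

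Genes were named by a rule that covers the 6 catalytic genes, Psme1 and Psme2, up to 5 called genes in each direction by adjusted p, the largest and smallest differences in each comparison, Tap1, Pomp, Nfe2l1, Nlrc5, Lag3 and up to 3 called genes per pathway list; not every one of them is given in every comparison. Some genes of the pathway lists are not reported here. Psmd1, Psmd2, Psmd6, Psme3 and Psme4 in the comparison of stages, and the groups of genes that passed no test, were chosen after their values were seen. Alternatives were DESeq2 1.42.0, other scalings, filters and thresholds, corrections for length and GC content, the replicate number as a block, fits of only the 2 groups compared and each library left out in turn. Deviations of same-numbered libraries of different groups had correlations of -0.119 to 0.0674. These do not decide whether the numbers mark pairs, and the main fits did not take them as pairs. On simulated data the fits recovered 6% of 100 genes changed 2-fold and 37% of 100 changed 4-fold in the comparison of LAG-3-high with LAG-3-low (15819 genes), 5% and 56% in that of P140 with P120 (17621 genes), and 98% and 99% in cord (17448 genes). Only these genes were changed in each simulation, fewer than were called in the same comparisons of the real libraries. The percentages therefore do not describe recovery where many genes change.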

Additional observations from a re-analysis of the deposited data

Results flagged for a closer look

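Among 75 sets of 4 or 5 values, those of 21 genes and of 4 ratios or shares of catalytic genes in each of the 3 sorted groups, 6 held a library whose distance from its neighbour exceeded Dixon's 95% critical value; chance gives about 1 in 20 such sets. Of these, 4 fell in the WT group. WT replicate 1 had the lowest Psmb7 level, 2.09 CPM, with the next WT library at 12.4 CPM. WT replicate 4 had the highest Psmb9 level, 320.4 CPM, with the next at 84.3 CPM, and without it the log2 difference of LAG-3-high from WT moved from -0.86 to 0.20. WT replicate 3 had the highest Psmd7 level, 114.7 CPM, with the next at 83.6 CPM, and the highest Psma8 level, 19.88 CPM, with the next at 2.004 CPM. LAG-3-high replicate 1 had the highest Psmd7 level of its group, 128.6 CPM, with the next at 103.5 CPM, while the lowest LAG-3-high library was still above all LAG-3-low libraries. LAG-3-low replicate 1 had the lowest Psmd1 level of its group, 106.0 CPM, with the next at 124.5 CPM.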

How the results depend on the processing

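The number of called proteasome genes was 2 in the comparison of LAG-3-high with LAG-3-low, 13 in LAG-3-high against WT, 16 in LAG-3-low against WT, 35 and 0 from P120 to P140 in LAG-3+/+ and LAG-3-/- microglia, 0 and 9 between genotypes at P120 and P140, 0 in the interaction and 33 in cord. The rise in LAG-3+/+ microglia and the count in cord stayed within 1.5 times of these values under the other scalings, filters and DESeq2, whereas the counts between the 2 SOD1G93A sorts and between genotypes at P140 did not. At an adjusted p under 0.05 the counts were 0, 6 and 10 in the 3 sort comparisons in the order given and 2 between genotypes at P140. With an added limit of log2 1 they were 0, 6, 10 and 2, and 1 in cord. DESeq2's size factors in edgeR gave 0 between the 2 SOD1G93A sorts and 14 between genotypes at P140. Library totals without TMM gave 0, 20 in LAG-3-high against WT, and 4 between genotypes at P140. No filter gave 0, 6 and 3 in the sort and 4 between genotypes at P140. Fits of only the 2 groups compared gave 12, 3 and 1 in the sort and 0 between genotypes at P140. DESeq2 gave 6 from P120 to P140 in LAG-3-/-, 22 between genotypes at P140 and 7 in the interaction.

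Correction for transcript length and GC content gave 1 between the 2 SOD1G93A sorts, 23 from P120 to P140 in LAG-3+/+, 5 between genotypes at P140 and 15 in cord. The coding length correction, added after seeing the data, gave 0 between the 2 SOD1G93A sorts and 2 between genotypes at P140. Deviations of same-numbered libraries had correlations of -0.119 to 0.0674 over all pairs of groups. Between the 2 SOD1G93A sorts their mean was 0.0323, against -0.0081 for libraries of different number. As both means are small, these values do not decide whether the replicate numbers mark pairs. The replicate block gave 0, 6 and 9 in the sort and 4 between genotypes at P140. With the length and GC correction as well, the replicate block gave 0, 5 and 7 in the sort, 22 from P120 to P140 in LAG-3+/+, 0 between genotypes at P140 and 15 in cord.

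With 1 library left out in turn the counts ran from 0 to 4 between the 2 SOD1G93A sorts, 7 to 21 and 11 to 27 against WT, 27 to 35 from P120 to P140 in LAG-3+/+, 0 to 29 between genotypes at P140, 0 to 14 in the interaction and 26 to 33 in cord. They were 0 throughout from P120 to P140 in LAG-3-/- and between genotypes at P120. Differences that changed sign in this way were those of Psmb9 in LAG-3-high against WT (log2 -1.13 to 0.20), Psmb8 in LAG-3-low against WT (-0.37 to 0.041), Psmd2 (-0.40 to 0.10) and Psmd1 (-0.20 to 0.10) from P120 to P140 in LAG-3+/+, and Psmb7 between genotypes at P140 (-0.13 to 0.21). Shares of all genes called with a library left out are not given here, so the counts are not set against them.

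Of 97 differences of named genes, 92 kept their sign and their side of the threshold with DESeq2's size factors, 86 under DESeq2, 83 under the replicate block, 81 without TMM, 80 without a filter, 73 and 72 under the coding and transcript length corrections and 65 under the block with the latter. Signs turned as follows, in log2. Without TMM, Psmb7 was -0.051 and Psmb9 -0.11 between the 2 SOD1G93A sorts, and Psmb7 was -0.29 from P120 to P140 in LAG-3+/+. Psmd1 in the latter comparison was 0.056 under DESeq2 and 0.059 under its size factors, and Psmb7 between genotypes at P140 was -0.0474 and -0.052. From P120 to P140 in LAG-3+/+, the transcript length correction gave Psmd2 0.12, Psmd6 -0.35, Psmd1 0.21, Psmb7 -0.79, Psme4 0.15 and Psme3 0.23. The coding length correction gave Psmd2 1.07, Psmd1 1.25, Psmb7 -0.29 and Psme4 0.76. The block with length gave Psmd2 0.10, Psmd6 -0.38, Psmd1 0.21, Psmb7 -0.80 and Psme3 0.19. In cord the 3 corrections gave Psmb8 -0.15, -0.15 and -0.14 and Psmb9 -0.28, -0.25 and -0.23 in the same order. There Psme2 was -0.078 under transcript length and -0.069 with the block, and Psme4 was 0.13 under coding length.

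With library totals in place of TMM, the log2 ratio of summed levels between the 2 SOD1G93A sorts moved from 0.315 to -0.059 over the 43 genes, from 0.653 to 0.275 over the immunoproteasome genes and from 0.613 to 0.237 over the constitutive catalytic genes. From P120 to P140 in LAG-3+/+ the same ratios moved from 1.175 to 0.676, 1.378 to 0.881 and 1.477 to 0.978. In cord the ratio over all genes moved from 0.534 to 0.399. Without division by length, the mean log2 ratios in cord moved from -4.739 to -4.354 for Psmb9 to Psmb6 and from -2.091 to -1.914 for Psmb10 to Psmb7.

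Groups of 3 to 5 libraries set the precision of all these values. In the microglial simulations, where few genes were changed, most genes with a 2-fold change were not recovered. That share does not carry over to comparisons in which many genes changed. A p that missed the threshold does not show equal levels. Neutrophil genes summed to a lower level in every LAG-3-high library than in the other sorted libraries, and their part in the sort comparisons was not tested. The causes of the changes listed here were not tested.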
